A study of Homo sapiens with 6 samples.

Results

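The genes described are 9 that encode surface proteins of plasma cells and myeloma cells, most of them targets of antibodies, bispecific antibodies or CAR T cells: SDC1, TNFRSF17, CD38, SLAMF7, GPRC5D, FCRL5, CD27, TNFRSF13B and CD79A. They were taken by symbol from a count table of 60728 genes, and each symbol matched 1 row. The libraries were bulk RNA-seq of total RNA from JJN3, a human multiple myeloma cell line, with the genotype given as WT in all groups. Each of 3 groups had 2 libraries, from cells in the solvent DMSO and from cells exposed to WNK463 for either 2 h or 6 h. WNK463 inhibits the WNK family of kinases, which regulate ion transport. The labels of the samples put its dose at 5 µM but the series text puts it at 1 µM, and nothing settles which of these was used. The DMSO libraries are labelled control for time, while their count columns carry a 0 and the series text speaks of 0, 2 and 6 hours. If they were collected at 0 h, every difference from DMSO holds the time in culture as well as the treatment, and these cannot be told apart. Whether the libraries of a group came from separate cultures is not stated, so every p-value below measures the spread between libraries only, which may be technical.

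Plasma cells are the antibody-secreting end stage of the B cell lineage, and multiple myeloma is a cancer of these cells. On becoming plasma cells, B cells lose most of the B cell receptor and its partners and gain a set of other surface proteins, among them syndecan-1 (CD138, from SDC1), BCMA (from TNFRSF17) and a high level of CD38. Antibodies to CD38 and SLAMF7, and T cell-directed agents against BCMA, GPRC5D and FCRL5, exploit that set, so whether a line carries the messenger RNA of each target is a basic property of it as a model.

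In JJN3, SDC1 and TNFRSF17 were high, GPRC5D and CD38 were intermediate, SLAMF7 and TNFRSF13B were low, and FCRL5, CD27 and CD79A were near absent. After WNK463, SDC1 was higher at 2 h and back at the DMSO level at 6 h, while SLAMF7 was higher at 6 h, with no difference past the test at 2 h. No difference from DMSO passed the test for TNFRSF17, CD38, GPRC5D or TNFRSF13B.

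Fragments counted on genes came to between 18013790 and 24002291 per library, and 3 counts corresponded to 0.125 to 0.167 CPM, which is counts scaled to the library total. Log CPM of replicate libraries correlated at 0.982 to 0.984. With 2 libraries a group, whether a library stood apart could not be judged. The DMSO replicates, the control of both times, differed most beyond counting noise, with a chi-square per degree of freedom of 8.41 against 4.15 at 2 h and 3.57 at 6 h. All 9 plasma cell markers listed, such as JCHAIN, IRF4 and XBP1, were above 1 CPM in at least 1 library. They summed to 2190 to 2300 TPM, which scales counts by gene length as well. Their mean levels ran from 2.31 TPM (CD9) to 893 TPM (JCHAIN). These markers speak to the lineage, and nothing specific to the JJN3 line was checked. Of 10 B cell markers, 8 stayed under 1 CPM in every library, with CD22, EBF1 and FCER2 at 0. PAX5 and BCL6 did not, at up to 4.27 and 5.19 CPM. BCL6 rose by 1.38 at 2 h and 1.68 at 6 h on the log2 scale (edgeR adjusted p 0.0146 and 0.000872). PAX5 fell by 1.15 at 6 h (edgeR adjusted p 0.00894). None of these calls held with each library left out in turn. The list summed to 4.89 to 6.25 TPM in DMSO, 5.43 to 5.91 at 2 h and 3.28 to 5.61 at 6 h. All 10 T and NK cell markers stayed under 1 CPM (at most 1.29 TPM in sum), as did all 5 erythroid and all 7 stromal and endothelial markers. Of 9 myeloid markers 6 did, and that list summed to 19.2 to 41.4 TPM in DMSO, 29.7 to 40.8 at 2 h and 40.2 to 44.2 at 6 h. S100A9 made up 9.25 to 32.0 TPM of it and S100A8 7.16 to 11.3 TPM. The plasma cell markers were not unchanged under their flat sum. At 6 h 5 of the 9 fell, XBP1 by 0.33, IRF4 by 0.28, MZB1 by 0.24, POU2AF1 by 0.48 and FKBP11 by 0.28 on the log2 scale, and PRDM1 (0.42) and JCHAIN (0.17) rose. Over all tested genes 18.6% fell and 18.0% rose at that time. The count of 5 was 3 without DMSO replicate 1 or 6 h replicate 2, and that of 2 was 1 without DMSO replicate 1 or either 6 h library. At 2 h 2 fell and 2 rose, where 8.32% of all tested genes fell and 8.68% rose. Fewer of the markers were called risen at 2 h without DMSO replicate 1 or either 2 h library. The part of these shifts in the results below was not tested. In bulk RNA, fewer cells with a transcript and less of it per cell cannot be told apart.

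Levels between genes were compared per length, in TPM, over the 6 libraries. These hold DMSO and treated libraries together, so each SD and percentage below also holds differences between groups. SDC1 (ENSG00000115884.11, hg38 chr2:20200797-20225433, minus strand), the heparan sulfate proteoglycan used to define plasma cells, had a level of 126 ± 16.1 TPM (SD, n = 6), above 92.4% of the 15548 genes that passed the filter on low counts. TNFRSF17 (ENSG00000048462.11, chr16:11965210-11968068, plus strand), whose product BCMA binds the ligands BAFF and APRIL, had 113 ± 12.5 TPM, above 91.3% of tested genes. Per length, these top levels cannot be ordered over all libraries: their ranges were 112 to 148 and 96.5 to 128 TPM, and SDC1 was the higher in 3 of 6 libraries. Without the length correction the ranges were separate, at 112 to 148 CPM for SDC1 and 27.1 to 35.6 CPM for TNFRSF17. The gene model of SDC1 is longer (3613 against 1015 bases). The order in TPM went with the group. SDC1 was the higher in both 2 h libraries (means of 147 against 103 TPM). TNFRSF17 was the higher in both 6 h libraries (127 against 116 TPM), and the DMSO libraries were split. This order was not tested.

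GPRC5D (ENSG00000111291.8, chr12:12940775-12952147, minus strand), an orphan receptor, followed at 17.7 ± 3.85 TPM, range 12.4 to 22.0. CD38 (ENSG00000004468.13, chr4:15778275-15853232, plus strand), an enzyme that consumes NAD at the cell surface, had 9.37 ± 1.21 TPM, range 7.98 to 11.3. GPRC5D stood above 55.4% and CD38 above 43.2% of tested genes, so both messenger RNAs were near the middle of the expressed genes in this line. The range of GPRC5D lay wholly under that of TNFRSF17 and wholly above that of CD38, and CD38 lay wholly above SLAMF7. Without the length correction CD38 ranked above GPRC5D, since its gene model is longer (6857 against 1124 bases).

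SLAMF7 (ENSG00000026751.17, chr1:160739057-160754821, plus strand), a SLAM family receptor, had 2.68 ± 1.22 TPM, range 1.59 to 4.30. TNFRSF13B (ENSG00000240505.9, chr17:16929816-16972118, minus strand), which encodes TACI, the other receptor shared by BAFF and APRIL, had 1.49 ± 0.524 TPM, range 0.545 to 1.99. Per length, SLAMF7 was above TNFRSF13B in 5 of 6 libraries, but the ranges overlapped. Without the length correction the ranges were separate, at 2.11 to 5.71 CPM for SLAMF7 and 0.528 to 1.94 CPM for TNFRSF13B. The gene model of SLAMF7 is longer (4833 against 3554 bases). Here too the order in TPM went with the group. The DMSO libraries were split, and both genes had a mean of 1.84 TPM in DMSO. SLAMF7 was the higher in both 2 h and both 6 h libraries. Its level over all libraries also holds its higher mean at 6 h, 4.2 TPM. The order of these genes was not tested. SLAMF7 stood above 23.4% of tested genes and TNFRSF13B above 15.8%.

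**Figure D1:**
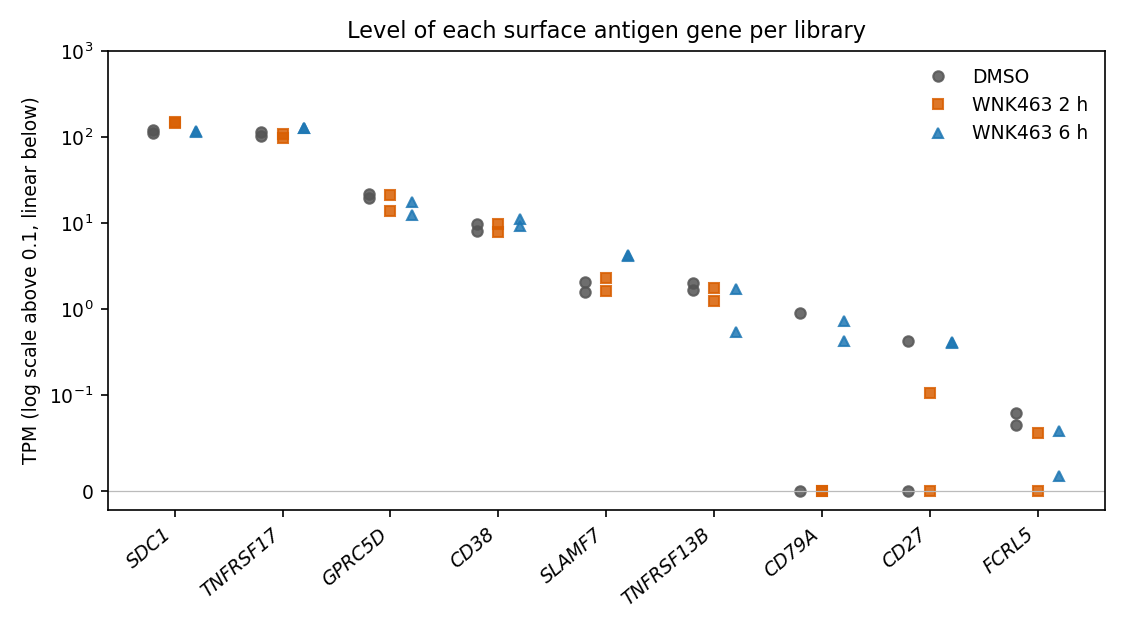
Level of each of the 9 genes in each of the 6 libraries, in TPM on an axis that is logarithmic above 0.1 and linear below. Points are single libraries, by group. SDC1 and TNFRSF17 sit between 96.5 and 148 TPM, and CD79A, CD27 and FCRL5 stay under 1 TPM in every library.

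Near absent here means under 1 CPM in every library, and 3 genes met that. FCRL5 (ENSG00000143297.19, chr1:157513377-157552515, minus strand), an Fc receptor-like protein, had 5 and 5 counts in DMSO, 0 and 5 at 2 h, and 4 and 1 at 6 h. CD27 (ENSG00000139193.3, chr12:6444867-6451718, plus strand), a TNF receptor family member of memory B cells and normal plasma cells, had 3 and 0, then 0 and 1, then 3 and 3. CD79A (ENSG00000105369.10, chr19:41877279-41881372, plus strand), the signalling chain of the B cell receptor, had 6 and 0, then 0 and 0, then 5 and 3.

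A few fragments were thus spread over libraries of all groups for FCRL5 and CD27, and CD79A was at 0 in 3 of 6 libraries. Pooled over the 120252829 fragments of all libraries, FCRL5 came to 0.166 CPM (95% exact Poisson interval 0.102 to 0.257), CD79A to 0.116 CPM (0.0637 to 0.195) and CD27 to 0.0832 CPM (0.0399 to 0.153). These intervals cover counting error only. Where a library held 0 counts, the limit a count of 0 allows was 0.141 CPM in DMSO replicate 2, 0.160 CPM in 2 h replicate 1 and 0.125 CPM in 2 h replicate 2. No test was made on these 3 genes, and no difference between their groups can be read at this depth. For CD27, 37% of the exonic length also lies in the antisense gene CD27-AS1 (155 counts in all). Counting ignored strand and, as featureCounts works by default, left fragments on shared exons uncounted, so the CD27 count covers only the unshared exons.

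Transcripts of partners or relatives of the near-absent genes were present. CD79B, the chain that pairs with CD79A, ranged from 28.5 to 38.1 TPM against 0 to 0.903 TPM for CD79A. CD70, the ligand of CD27, ranged from 90.7 to 124 TPM against 0 to 0.430 TPM for its receptor. FCRLB, an intracellular relative of FCRL5, ranged from 6.93 to 12.4 TPM, whereas the other 6 FCRL family genes listed stayed under 1 CPM in every library, as FCRL5 did.

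The families of TNFRSF17 and SLAMF7 were also unevenly expressed. TNFRSF17 had 75.6 times the mean TPM of TNFRSF13B and 93.8 times that of TNFRSF13C, the BAFF receptor, which ranged from 0.460 to 1.68 TPM. These ratios are larger than in CPM, because the TNFRSF17 gene model is short (1015 against 3554 and 3944 bases). The mean CPM was 31.45 for TNFRSF17, 1.459 for TNFRSF13B and 1.302 for TNFRSF13C. The ligand genes TNFSF13 (APRIL) and TNFSF13B (BAFF) had 13 and 29 counts over all libraries and stayed under 1 CPM throughout. In the SLAM family, CD48 ranged from 40.0 to 56.1 TPM, and SLAMF1, LY9, CD244, CD84, SLAMF6, SLAMF8 and SLAMF9 were under 1 CPM in every library, with SLAMF6 and SLAMF9 at 0 counts.

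**Figure D2:**
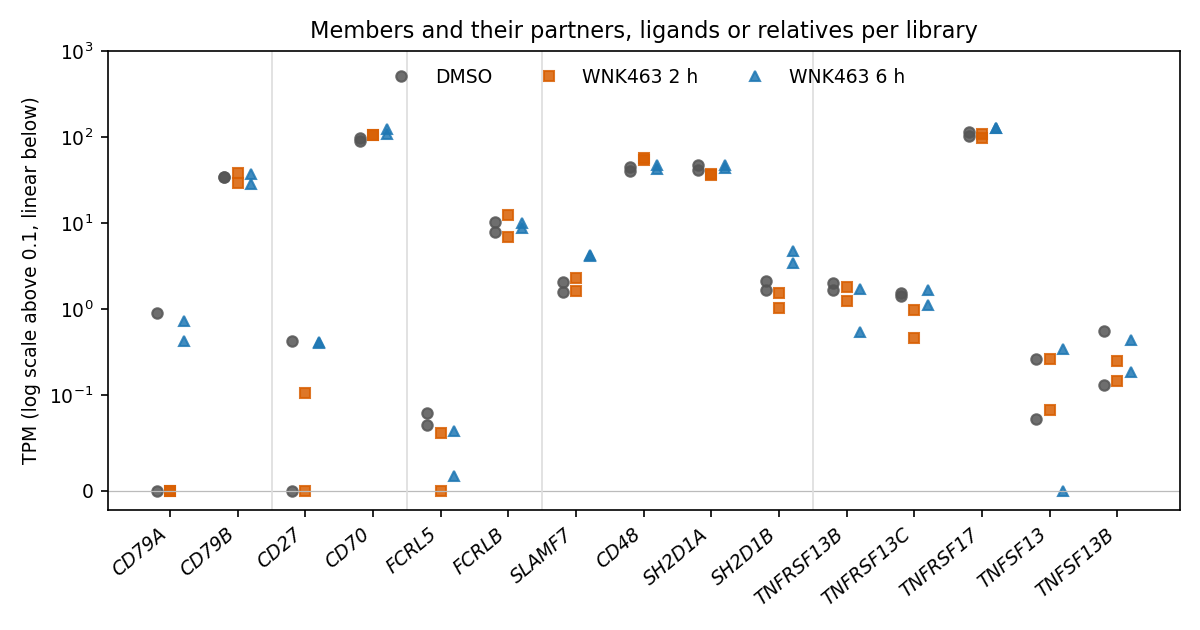
Members beside their partners, relatives or ligands, in TPM per library on an axis that is logarithmic above 0.1 and linear below. CD79A, CD27 and FCRL5 lie under 1 TPM beside CD79B, CD70 and FCRLB, which lie at 6.93 TPM or more in every library.

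Promoters of a high and of intermediate members are shown because they differ in CpG content. RefSeq (GRCh38.p14) holds the promoter, 250 bases before to 50 after the start, of 7 members: SDC1, CD38, FCRL5, GPRC5D, CD27, TNFRSF13B and CD79A. The sequences run 5′ to 3′ on the gene's strand, with CG dinucleotides in capitals, at chr2:20225426-20225725 (SDC1, minus strand), chr4:15778078-15778377 (CD38, plus strand) and chr12:12952121-12952420 (GPRC5D, minus strand).
SDC1: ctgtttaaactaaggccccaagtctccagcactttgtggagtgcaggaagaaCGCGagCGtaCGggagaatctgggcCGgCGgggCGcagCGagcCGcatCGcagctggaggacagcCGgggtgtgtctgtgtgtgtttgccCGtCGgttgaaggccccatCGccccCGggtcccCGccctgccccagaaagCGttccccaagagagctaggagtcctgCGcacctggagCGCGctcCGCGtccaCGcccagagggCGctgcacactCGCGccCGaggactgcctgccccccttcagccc
CD38: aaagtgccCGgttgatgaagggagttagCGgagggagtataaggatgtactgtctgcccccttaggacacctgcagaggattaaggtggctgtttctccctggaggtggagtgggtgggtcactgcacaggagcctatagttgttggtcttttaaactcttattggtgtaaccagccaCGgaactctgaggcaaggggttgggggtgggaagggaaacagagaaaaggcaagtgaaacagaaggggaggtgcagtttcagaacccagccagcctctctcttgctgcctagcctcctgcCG
GPRC5D: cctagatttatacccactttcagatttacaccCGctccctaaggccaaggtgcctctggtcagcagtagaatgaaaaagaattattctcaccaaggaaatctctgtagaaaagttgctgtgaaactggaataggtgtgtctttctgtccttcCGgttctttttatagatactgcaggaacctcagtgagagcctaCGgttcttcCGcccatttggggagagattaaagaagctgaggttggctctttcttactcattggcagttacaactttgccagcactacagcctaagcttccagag

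The SDC1 promoter held 27 CpG dinucleotides at 67.7% GC, against a median of 14 and 58.3% over 27305 promoters of the same length. CD38 held 4 at 54% GC and GPRC5D 4 at 45%. The remaining members in the table were also CpG-poor, with 3 in FCRL5, 3 in CD27, 5 in TNFRSF13B and 4 in CD79A, so GPRC5D and CD38 did not differ in this from members near absence.

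Motifs were searched as letters on both strands of the 300 bases. The letters TGACTCA of the AP-1 motif occur in 4.92% of all promoters, and none of the sequences printed holds them. Those of the E-box, CACGTG, which occur in 7.43%, were also in none of these windows. The GC box letters, GGGCGG, occur in 44.6% of all promoters, and SDC1 held them at bases -76 to -71 from the start and GPRC5D at -47 to -42. The TATA letters, TATAAA, occur in 12%, and GPRC5D held them at -244 to -239 and at -90 to -85. The CD38 window held none of these letters. These matches describe the sequence and are not binding sites.

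At 2 h, the question was which antigens differed first after WNK463. Of the 6 members tested, all of which had at least 10 counts in every library, 1 was called higher (SDC1) and 0 lower. Among all 15548 tested genes 17.0% were called, 8.68% higher and 8.32% lower, so 1 of 6 is near the background share. A call required an adjusted p under 0.05, by edgeR's quasi-likelihood test with Benjamini-Hochberg adjustment over all genes tested.

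SDC1 had 119 and 112 CPM in the DMSO libraries, 148 and 145 CPM at 2 h, and 113 and 116 CPM at 6 h. Both 2 h libraries lay above all 4 others, and the DMSO and 6 h libraries overlapped. SDC1 rose at 2 h by 0.37 ± 0.0737 on the log2 scale (SE, 95% interval 0.23 to 0.52), which is 1.30-fold (1.17 to 1.44), with an edgeR adjusted p of 0.000182. At 6 h the difference from DMSO was -0.05 ± 0.0745 (-0.20 to 0.10, adjusted p 0.651). The direct comparison of 6 h with 2 h was lower by 0.42: the log2 difference was -0.42 ± 0.0738 (adjusted p 1.6e-05). In TPM the group means were 116 in DMSO, 147 at 2 h and 116 at 6 h. The exons of SDC1 overlap no other gene in the table. Each of 17 alternatives kept its 2 h call (log2 0.34 to 0.42) and its call between 6 h and 2 h.

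**Figure D3:**
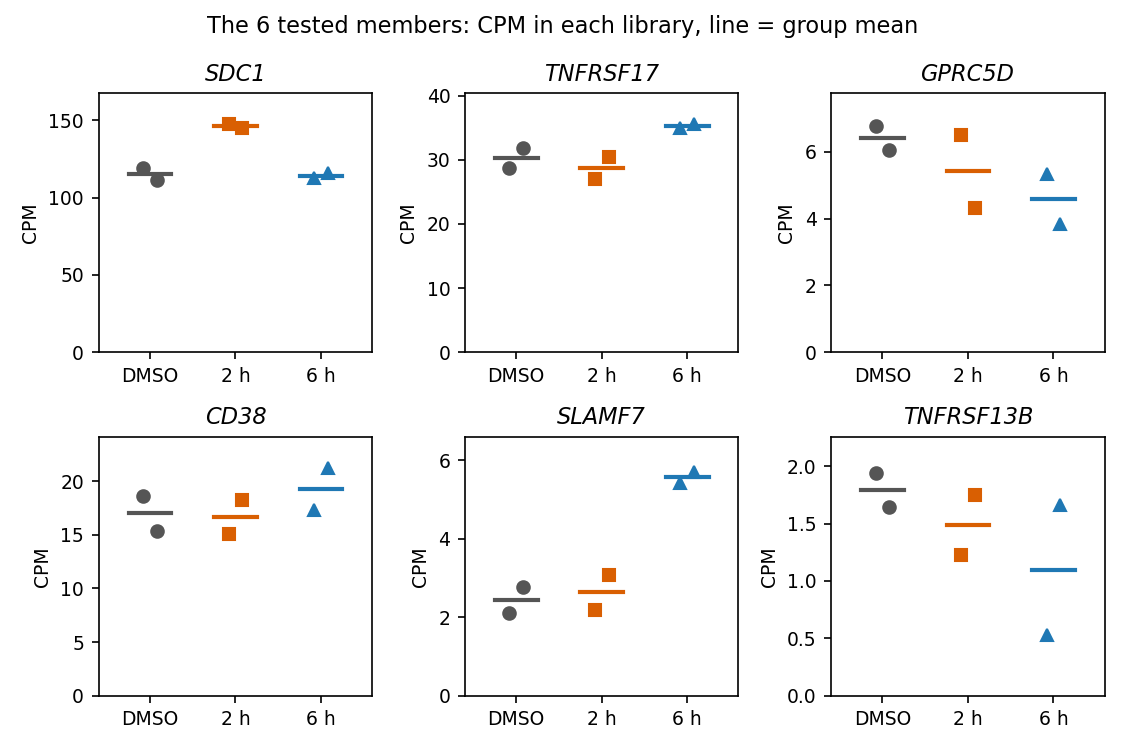
CPM of the 6 tested members in each library by group, each panel on its own axis from 0, with a line at the group mean. For SDC1 both 2 h libraries, at 145 and 148 CPM, lie above the others, and for SLAMF7 both 6 h libraries, at 5.43 and 5.71 CPM, do.

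At 6 h, 1 of the 6 tested members was called higher (SLAMF7) and 0 lower, against a background of 36.6% called among all tested genes, 18.0% higher and 18.6% lower. In the direct comparison of 6 h with 2 h, 1 member was higher (SLAMF7) and 1 lower (SDC1), with 24.3% of all genes called, 11.1% higher and 13.1% lower. The share of members, 1 of 6, lay under the background at 6 h, and 2 of 6 lay somewhat above it between the times, and with so few genes nothing is read from either. Comparisons of 2 h and 6 h with DMSO share their control libraries and are not independent of each other.

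SLAMF7, the receptor bound by elotuzumab, had 2.11 and 2.77 CPM in DMSO, 2.19 and 3.08 CPM at 2 h, and 5.43 and 5.71 CPM at 6 h. Both 6 h libraries lay above all others, while the DMSO and 2 h libraries overlapped. These levels rest on 38 and 59, 41 and 74, and 103 and 110 counts. SLAMF7 rose at 6 h against DMSO by 1.15 ± 0.316 on the log2 scale (0.51 to 1.78), a fold of 2.22 (1.43 to 3.44), with an edgeR adjusted p of 0.0032. The 2 h difference was 0.15 ± 0.328 (-0.51 to 0.81, adjusted p 0.821). Against 2 h, the 6 h level was higher by 1.00 ± 0.311 (adjusted p 0.0133). Even so SLAMF7 stayed a low transcript, at 4.22 ± 0.122 TPM at 6 h against 1.84 ± 0.351 TPM in DMSO (SD, n = 2 each).

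The call for SLAMF7 at 6 h against DMSO held under all 17 alternatives (adjusted p 0.000728 to 0.0339). The call between 6 h and 2 h was lost without 2 h replicate 1 (log2 0.78, adjusted p 0.132), without 6 h replicate 1 (1.04, 0.0546) and without 6 h replicate 2 (0.96, 0.0845).

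For BCMA, TNFRSF17 had 28.8 and 31.8 CPM in DMSO, 27.1 and 30.5 CPM at 2 h, and 35.0 and 35.6 CPM at 6 h. Both 6 h libraries were above all others, yet the log2 difference from DMSO was 0.19 ± 0.118 (-0.05 to 0.42, adjusted p 0.232) and did not pass the test. At 2 h it was -0.04 (-0.28 to 0.20, adjusted p 0.87). Without DMSO replicate 1 the 6 h difference was 0.109. The intervals thus leave room for a change of up to 0.42 on the log2 scale at 6 h.

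CD38 had 18.6 and 15.4 CPM in DMSO, 15.1 and 18.2 CPM at 2 h, and 17.4 and 21.2 CPM at 6 h. All groups overlapped. The log2 difference from DMSO was 0.01 (-0.30 to 0.32, adjusted p 0.977) at 2 h and 0.15 (-0.15 to 0.46, adjusted p 0.473) at 6 h. Without 6 h replicate 2 the 6 h difference was -0.0031, and it was also smaller without DMSO replicate 2.

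GPRC5D had 6.77 and 6.06 CPM in DMSO, 6.52 and 4.33 CPM at 2 h, and 5.33 and 3.84 CPM at 6 h. Both 6 h libraries were under both DMSO libraries, and the 2 h libraries overlapped both groups. The log2 difference at 6 h was -0.52 ± 0.259 (-1.04 to 0.0045), with an unadjusted p of 0.0519 and an adjusted p of 0.117. It was -0.30 without 6 h replicate 2 and -0.77 without 6 h replicate 1, in neither case past the test. At 2 h it was -0.22 (adjusted p 0.63).

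TNFRSF13B had 1.94 and 1.64 CPM in DMSO, 1.23 and 1.75 CPM at 2 h, and 0.528 and 1.66 CPM at 6 h. The groups overlapped, and the 6 h libraries differed from each other by more than the group means did. The log2 difference at 6 h was -0.74 ± 0.548 (-1.84 to 0.36, adjusted p 0.313). It rested on 6 h replicate 1, with 10 counts, and was -0.14 without that library. The exons of TNFRSF13B share 17.3% of their length with TBC1D27P on the same strand.

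**Figure D4:**
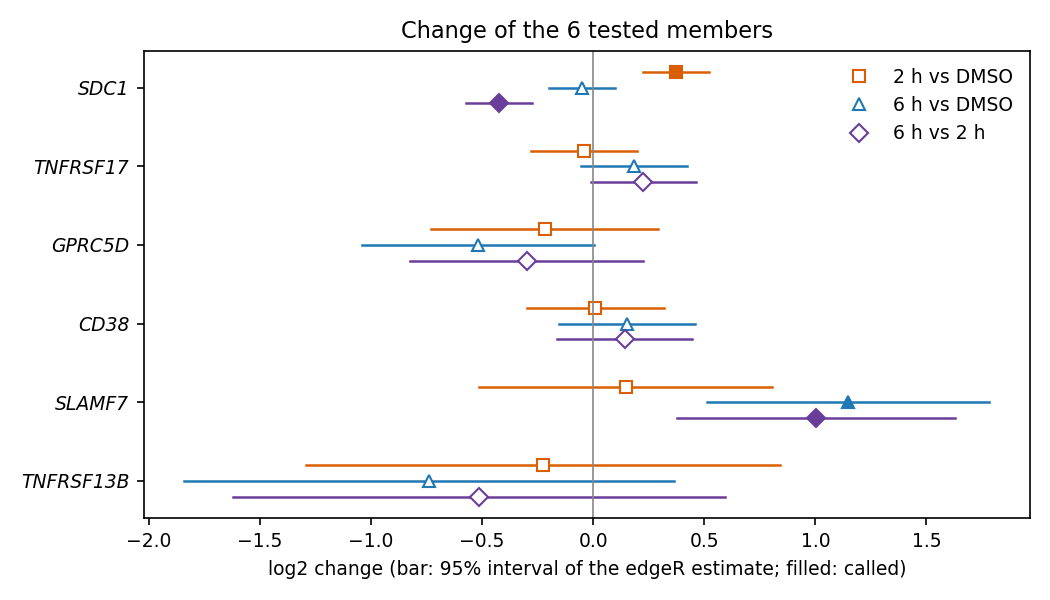
Log2 change of the 6 tested members in the 3 comparisons, with 95% intervals of the edgeR estimate. Filled symbols passed the test: SDC1 at 2 h against DMSO (0.37) and at 6 h against 2 h (-0.42), and SLAMF7 at 6 h against DMSO (1.15) and against 2 h (1.00).

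Genes whose log CPM followed a member most closely over the 6 libraries were sought for members with a call against DMSO and a mean of at least 4 CPM, which left SDC1. Among 10619 genes, ICAM1 (Pearson r 0.994), MIDEAS (0.994) and NAB2 (0.991) were nearest. The 6 points share groups and libraries, so r describes likeness only. ICAM1, an adhesion receptor, had 43.5 and 37.3 CPM in DMSO, 68.1 and 66.1 CPM at 2 h, and 40.5 and 41.6 CPM at 6 h, with only the 2 h libraries apart. Its exons share 23.6% of their length with the antisense gene ICAM4-AS1, which had 1 count.

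The genes around each member were taken as whole lists, and over all tested genes the median log2 difference from DMSO was -0.0049 at 2 h and -0.005 at 6 h. The counts of each list stand beside the shares over all tested genes, 8.68% higher and 8.32% lower at 2 h and 18.0% higher and 18.6% lower at 6 h. Around SDC1, of 28 other syndecans, heparan sulfate enzymes and sheddases 27 were tested. At 2 h 10 rose and 0 fell (median 0.17), and at 6 h 10 rose and 2 fell (median 0.08). SDC2, the next syndecan, had 32.4 and 34.4 CPM in DMSO, 40.8 and 41.1 CPM at 2 h, and 63.6 and 66.7 CPM at 6 h, with no overlap between the 3 groups. It rose by 0.32 at 2 h and 0.93 at 6 h (edgeR adjusted p 0.0242 and 4.02e-10), while SDC1 was back at its DMSO level. SDCBP, the syntenin scaffold that binds syndecan tails, rose by 0.24 and then 0.75 (adjusted p 0.0101 and 3.6e-12). XYLT1, which starts the sugar chain, rose by 0.53 and 0.57 (adjusted p 1.79e-06 and 1.09e-07).

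Without 2 h replicate 1 the 2 h calls of SDC2 (adjusted p 0.104) and SDCBP (0.164) were lost, and SDC2 also lost its call without DMSO replicate 1 (0.092) or 2 h replicate 2 (0.153). The 2 h count of 10 higher was 5 without either 2 h library, and that of 0 lower was 1 without either DMSO library. At the level of all syndecans, SDC1 had 3.04 times the mean TPM of SDC2.

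Around TNFRSF17 and TNFRSF13B, 10 of 12 other genes of the BAFF and APRIL system were tested, with 3 higher and 4 lower at 2 h (median -0.11) and 4 higher and 3 lower at 6 h (median 0.01). TRAF3, the adaptor that keeps the kinase NIK low, had 222 and 223 CPM in DMSO, 170 and 177 CPM at 2 h, and 155 and 156 CPM at 6 h. It fell by 0.33 and by 0.55 on the log2 scale (adjusted p 0.000298 and 5.22e-09). MAP3K14, which encodes NIK itself, fell by 0.70 and by 0.82 (adjusted p 1.79e-06 and 2.09e-08). TRAF1, another adaptor of TNF receptors, rose by 0.82 and 0.75 (adjusted p 6.28e-07 and 1.41e-06).

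The receptor-proximal adaptors and kinase of this pathway therefore moved in both directions while its receptor genes were not called. Without 6 h replicate 1 the count of higher genes at 6 h was 2 in place of 4. Exons of MAP3K14 share 15.1% of their length with the antisense MAP3K14-AS1 (450 counts in all), and such fragments were not counted. Of 6 subunits of gamma-secretase, the protease that sheds BCMA from the surface, 0 were called at 2 h and 1 rose at 6 h (median -0.03 and 0.12). That was NCSTN, nicastrin, at 143 and 130 CPM in DMSO and 192 and 195 CPM at 6 h, a rise of 0.47 (adjusted p 5.17e-07). Its 2 h difference of 0.17 (adjusted p 0.0925) passed only without DMSO replicate 1 (0.00735).

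Around CD38, 11 of 13 relatives and enzymes of NAD and adenosine metabolism were tested, with 3 higher and 1 lower at 2 h (median 0.14) and 4 higher and 2 lower at 6 h (median 0.17). NAMPT, the rate-limiting enzyme of NAD salvage, had 249 and 264 CPM in DMSO, 354 and 336 CPM at 2 h, and 397 and 382 CPM at 6 h. It rose by 0.46 and 0.57 (adjusted p 1.32e-07 and 1.69e-10). NMNAT1, the next enzyme of that route in the nucleus, rose by 0.71 and 1.00 (adjusted p 0.000549 and 5.63e-07). NADSYN1, which makes NAD from other precursors, fell by 0.55 and by 0.52 (adjusted p 0.00034 and 0.000257). BST1, the nearest relative of CD38, had 12 counts in all. Exons of NAMPT and NMNAT1 share 8.9% and 9.46% of their length with other genes.

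Around SLAMF7, 7 of 14 SLAM receptors and adaptors were tested, with 2 higher and 0 lower at 2 h (median 0.05) and 0 higher and 1 lower at 6 h (median 0.09). The gene lower at 6 h was FYN, a kinase recruited by these receptors, with 74.5 and 70.8 CPM in DMSO and 58.2 and 66.0 CPM at 6 h. It fell by 0.26 (adjusted p 0.0207), a call lost without DMSO replicate 1 (0.0514) or 6 h replicate 1 (log2 -0.17, adjusted p 0.342). The 2 h count of higher genes was 1 without any one of DMSO replicate 1, the 2 h libraries or the 6 h libraries, and with the replicate block, and the 6 h count was 1 without any one of the DMSO or 2 h libraries.

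Besides these, 2 SLAM genes were picked out after their values were seen. CD48 had 35.7 and 39.7 CPM in DMSO, 50.5 and 48.6 CPM at 2 h, and 37.5 and 42.5 CPM at 6 h, with the 2 h libraries highest, as for SDC1. Exons of CD48 share 30% of their length with an antisense gene. It rose by 0.42 at 2 h (adjusted p 0.00357) and differed from DMSO by 0.05 at 6 h. SH2D1B, which encodes EAT-2, the adaptor that SLAMF7 signals through, had 1.28 and 1.64 CPM in DMSO, 1.18 and 0.792 CPM at 2 h, and 3.64 and 2.65 CPM at 6 h. Its 6 h libraries lay above all others, but the difference from DMSO was 1.06 with an adjusted p of 0.0614, and only that from 2 h passed (1.62, adjusted p 0.00793).

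For GPRC5D, relatives offered little: GPRC5B had 0 counts, GPRC5A 9, and GPRC5C a mean of 0.381 TPM. GPRC5C was called higher at both times (log2 2.74 and 3.29, adjusted p 0.0374 and 0.00404) from 0.167 and 0.0939 CPM in DMSO, which are at or under 3 counts. These estimates depend on the prior count. The 2 h call was lost without DMSO replicate 1, DMSO replicate 2, 2 h replicate 1 or 6 h replicate 1, and with DESeq2, voom or the replicate block, and the 6 h call without 6 h replicate 1.

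Both CD27 partners were tested and 0 passed at 2 h. At 6 h CD70 was at the threshold (log2 0.26, adjusted p 0.0498), with 41.2 and 38.1 CPM in DMSO and 45.2 and 52.0 CPM at 6 h. Its call was lost without DMSO replicate 2, either 2 h library or 6 h replicate 2 (adjusted p 0.0669 to 0.479), with no filter on low counts (0.0784), with only the groups compared (0.0575), with DESeq2 (0.0718) and with a block for the replicate number (0.0525). Without 6 h replicate 2 the log2 difference was 0.15. SIVA1, which binds the tail of CD27, fell by 0.35 (adjusted p 0.00813), a call lost without DMSO replicate 1 (0.0697) or 6 h replicate 1 (0.179).

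Around CD79A, 12 of 19 other B cell receptor genes were tested, with 4 higher and 0 lower at 2 h (median 0.26) and 4 higher and 1 lower at 6 h (median 0.10). Genes too low to test included CR2, MS4A1, CD22, CD72, BTK and BLK. CD79B itself, whose exons share 14% of their length with another gene at 0 counts, had 19.6 and 19.2 CPM in DMSO, 21.8 and 16.7 CPM at 2 h, and 20.6 and 16.1 CPM at 6 h, with all groups overlapping and log2 differences of 0.01 and -0.11 (adjusted p 0.97 and 0.597). CD81, a tetraspanin of the B cell surface, rose by 0.29 and 0.31 (adjusted p 0.000505 and 9.79e-05) from 256 and 249 CPM.

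SYK, the kinase that docks on the phosphorylated CD79 chains, fell at 6 h by 0.47 (adjusted p 0.000619). BCL10, an adaptor on the way to NF-kB, rose by 0.38 at 2 h and 0.34 at 6 h (adjusted p 0.0125 and 0.0141). The 6 h call of SYK was lost without 6 h replicate 1 (log2 -0.27, adjusted p 0.146), and those of BCL10 without DMSO replicate 2 (0.0952 and 0.13), at 2 h without 2 h replicate 1 (0.115) and at 6 h without 6 h replicate 1 (0.14). CD81 lost its 2 h call without 2 h replicate 2 (0.08). The count of higher genes was 1 at 2 h without either 2 h library, and at 6 h it was 2 without DMSO replicate 2 and 1 without 6 h replicate 1.

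Beyond the 9 genes, 26 of 32 other surface antigens described on myeloma cells were tested. At 2 h 9 rose and 0 fell (median 0.16), where 8.68% of all tested genes rose and 8.32% fell. At 6 h 10 rose and 4 fell (median 0.08), where 18.0% rose and 18.6% fell. CCR1, a chemokine receptor, had 106 and 108 CPM in DMSO, 154 and 154 CPM at 2 h, and 285 and 287 CPM at 6 h, with each group apart from the others. It rose by 0.55 and 1.38 (adjusted p 2.6e-08 and 3.03e-21). CD44, an adhesion receptor for hyaluronan, rose by 0.44 and 0.63 (adjusted p 1.11e-06 and 4.32e-11).

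SLC7A5, the light chain of the amino acid transporter whose heavy chain is CD98, had 1160 and 1077 CPM in DMSO, 1126 and 1147 CPM at 2 h, and 638 and 654 CPM at 6 h. It fell at 6 h by 0.83 (adjusted p 1.02e-17), where SLC3A2, the heavy chain, fell by 0.26 (adjusted p 0.000704). At 2 h its difference was 0.05 (adjusted p 0.531), which passed without DMSO replicate 1 (0.0449). CD40 and CD200 had 0 counts in every library. Without 2 h replicate 2 the 2 h count of higher genes was 3 in place of 9, and without either treated library of 2 h or of 6 h the count of lower genes at 6 h was 2 in place of 4, as it was with library size alone, upper quartile factors or DESeq2.

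**Figure D5:**
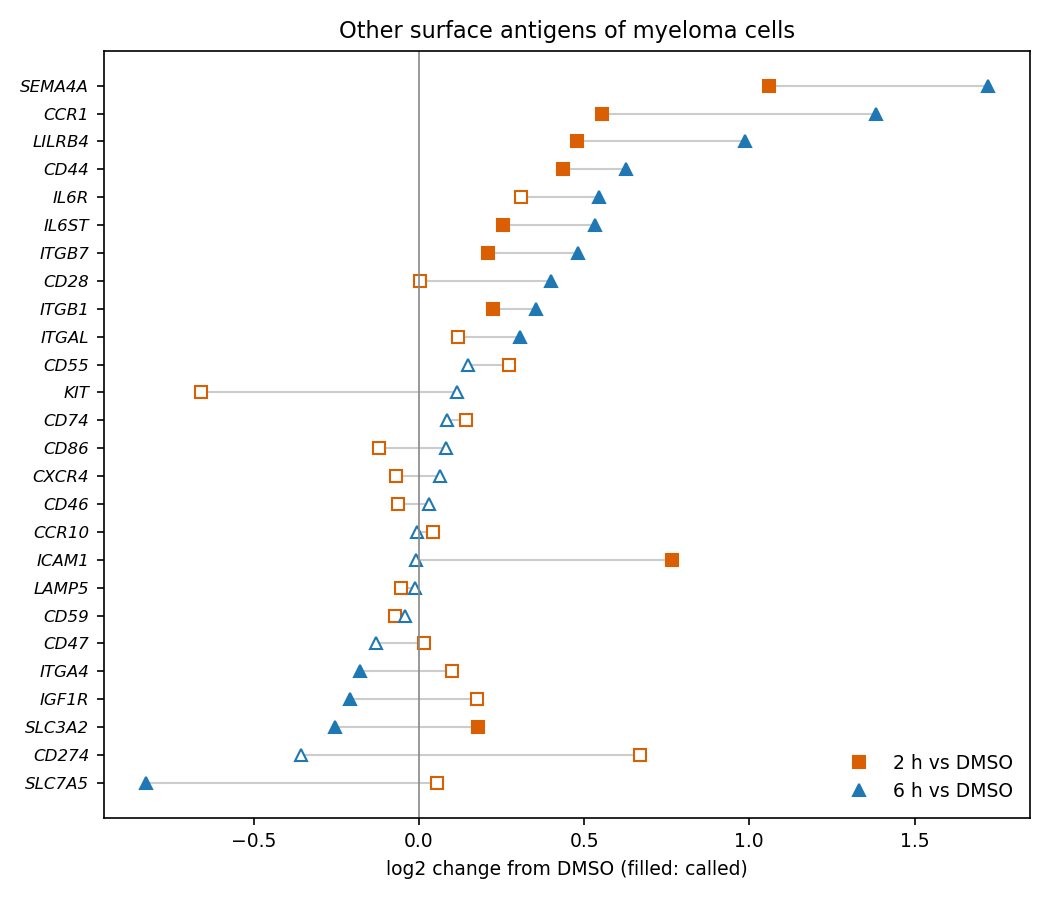
Log2 change from DMSO at 2 h (squares) and 6 h (triangles) of the 26 tested genes in the list of other surface antigens, ordered by the 6 h value. Filled symbols passed the test, among them CCR1 at 1.38 and SLC7A5 at -0.83 at 6 h.

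Drugs for myeloma also act inside the cell, and all 11 such targets listed were tested, with 3 higher and 1 lower at 2 h (median 0.04) and 5 higher and 2 lower at 6 h (median -0.10). The gene lower at 2 h was CRBN (log2 -0.33, edgeR adjusted p 0.00813). Those lower at 6 h were XPO1 (-0.29, edgeR adjusted p 7.13e-05) and DDB1 (-0.16, edgeR adjusted p 0.017). IKZF3, the transcription factor Aiolos that lenalidomide causes to be degraded, had 775 and 777 CPM in DMSO, 976 and 1015 CPM at 2 h, and 1282 and 1235 CPM at 6 h. It rose by 0.39 and 0.66 (adjusted p 6.79e-08 and 7.21e-15). BCL2, the target of venetoclax, rose by 0.34 and 0.44 (adjusted p 0.000165 and 5.85e-07). HDAC6, a cytoplasmic deacetylase, had 10.1 and 9.91 CPM in DMSO and 19.6 and 24.2 CPM at 6 h, and rose by 1.09 at 6 h (adjusted p 5.37e-07). The 2 h count of lower genes was 0 without DMSO replicate 2 or 2 h replicate 2, and the 6 h count of lower genes was 4 without DMSO replicate 1 and 1 without either 6 h library or with library size alone.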

How the data were processed

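The deposited values are raw counts of fragments per gene. Per the submitters' processing notes, reads were trimmed by Trimmomatic and aligned to hg38 by STAR, and per the file headers the authors counted paired reads of mapping quality 20 or more on GENCODE 34 with featureCounts 2.0.0, ignoring strand. The ANK2 record, broken over several lines, was rejoined. All 6 libraries entered a single fit by edgeR 4.0.16 (R 4.3.3) with group means, TMM normalization (factors 0.977 to 1.03) and the filterByExpr filter, after which 15548 genes were tested. Quasi-likelihood tests were adjusted by Benjamini-Hochberg over these genes. The biological coefficient of variation was 7.72% (dispersion 0.00597), and a gene's spread came largely from all genes (42.8 degrees of freedom against 3 of its own). The SE derives from the F statistic. CPM uses total counts, and TPM uses the gene lengths in the deposited table. Replicate libraries of every group differed beyond counting noise, with a chi-square of 3.57 to 8.41 per degree of freedom, highest in DMSO.

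The 9 genes and the lists around them were chosen with earlier results of these data known. Named list genes were the 3 smallest adjusted p at 6 h against DMSO among called genes of a list with a mean of at least 1 CPM. Other genes named, such as CD48, SH2D1B, GPRC5C, BST1, SLC3A2 and ICAM1, were chosen after their values were seen. The procedure was run on simulated data with a single dispersion for all genes and changes placed in a small share of genes, all of at least 4 CPM. That run does not cover lower genes such as SLAMF7, at a mean of 3.55 CPM. The alternatives tried were DESeq2 1.42.0, voom in limma 3.58.1, further scalings and low-count filters, fitting each pair of groups alone, a block for the replicate number, robust dispersions, a stricter threshold and leaving out each library. Figures were drawn with matplotlib 3.10.9.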

Additional observations from a re-analysis of the deposited data

Results flagged for a closer look

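For 2 of the 6 tested members, the difference from DMSO was itself different between the times, by the edgeR test of 6 h against 2 h. In that comparison 24.3% of all tested genes were called, and with so few members nothing is read from the count. SDC1 changed less at 6 h than at 2 h, by -0.42 on the log2 scale, with group means of 115.5, 146.4 and 114.2 CPM in DMSO, 2 h and 6 h. SLAMF7 changed more at 6 h than at 2 h, by 1.00 on the log2 scale, in a gene of at most 110 counts per library. That call of SLAMF7 was kept in 13 of 17 alternatives. Since both times share the DMSO libraries, this test rests on the 2 h and 6 h libraries alone.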

How the results depend on the processing

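Each of 17 alternatives kept the calls of SDC1 at 2 h and of SLAMF7 at 6 h against DMSO. With any 1 library left out, genes called ranged from 1527 to 2911 at 2 h against DMSO (lowest without 2 h replicate 2), from 4021 to 5600 at 6 h against DMSO and from 2288 to 4661 at 6 h against 2 h (lowest without 6 h replicate 1). Members called at 6 h against 2 h ranged from 1 to 2. At an adjusted p under 0.01, genes called at 2 h against DMSO numbered 1560 and members called at 6 h against 2 h numbered 1, since SLAMF7 (0.0133) was lost.

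Uncalled differences that changed sign were those of CD38, TNFRSF17, SLAMF7, GPRC5D, TNFRSF13B and HDAC6. For CD38 at 2 h against DMSO the log2 difference was -0.0215 with library size alone. With any 1 library left out it ranged from -0.13 to 0.14 for CD38, -0.13 to 0.051 for TNFRSF17, -0.13 to 0.38 for SLAMF7, -0.53 to 0.056 for GPRC5D, -0.51 to 0.0024 for TNFRSF13B and -0.083 to 0.15 for HDAC6 at 2 h. It ranged from -0.0031 to 0.29 for CD38 at 6 h against DMSO. At 6 h against 2 h the ranges were -0.015 to 0.29 for CD38, -0.57 to 0.012 for GPRC5D and -1.56 to 0.085 for TNFRSF13B. Leaving out a library also leaves fewer libraries to test, and the cause was not tested further.

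No pairing of the samples by replicate number was seen: differences between replicates 1 and 2 correlated at -0.005, -0.038 and -0.021 between groups. A correlation over all tested genes, many of them low, can miss a pairing. The count columns bear the letter A for replicate 1 and B for replicate 2, and whether the letters mark a pairing is not known. With the replicate block, 2658, 5686 and 3807 genes and 1, 1 and 2 members were called at 2 h against DMSO, 6 h against DMSO and 6 h against 2 h. Among members and the list genes named by the rule, the block changed the call of CD70 alone. Over the named list genes, 717 values kept direction and call under the alternatives, 28 lost the call, 2 gained it and 1 changed sign. At this depth the 3 near-absent genes, with 10 to 20 counts in all, could not be tested.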
